A study of Mus musculus with 24 samples.

Results

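The miR-101 family of the mouse was followed in extracellular vesicles (EVs) of the blood serum after bone surgery. The members are the rows mmu-miR-101a-3p and mmu-miR-101b-3p of the deposited count table, taken by name, which makes 2 of 1966 mature miRNAs. Both were detected in all 24 libraries, and both were among the 252 miRNAs tested. miR-101 is best known as a repressor of Ezh2, the histone methyltransferase of the Polycomb repressive complex, and its loss in tumours goes with a higher level of that enzyme. It is made from separate genes as hairpin precursors, whose 3p arm is the one that mostly accumulates, and it is transcribed in many tissues, so that its presence in serum does not name a source.

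All mice were male, wild type C57BL/6 animals of 14 to 16 weeks. The surgery groups had an open fracture of the tibia stabilized with an intramedullary pin, under isoflurane and buprenorphine, and blood was taken after 6 h (S6h), 24 h (S24h) or 72 h (S72h). The Control mice had no surgery and were given saline. Surgery cannot be told apart from isoflurane and buprenorphine in any comparison with Control, at 6 h too. No group had these drugs without surgery. Each group holds 6 mice, with 1 small RNA library per mouse. The S24h and S72h mice were also given analgesia every day, and the Control mice are the controls set up for the 6 h group. The later controls (C24-72h) were not analysed here, so time after surgery, repeated analgesia and the set of animals cannot be told apart in S24h and S72h against Control, nor can time and repeated analgesia in S24h and S72h against S6h, and the set of animals may differ there as well. EVs were collected by precipitation, which can carry down other serum particles, and protein markers of EVs were not used here. Less miRNA per vesicle and fewer vesicles of one origin cannot be told apart in such samples.

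Total counts ranged from 63956 to 263211 in the Control libraries (median 117578.5), from 102568 to 471801 at 6 h (median 177467.5), from 66652 to 143856 at 24 h (median 75030.0) and from 65017 to 245013 at 72 h (median 94427.5). Levels are given as CPM, a miRNA's count scaled to the library's total. Where a count was 0, up to 3 counts remain possible, which is 6.36 CPM in the deepest library and 46.9 CPM in the shallowest. Intervals are exact 95% binomial intervals. Like these limits they cover counting error only, and may be too narrow even for that, because reads after PCR are not independent molecules.

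The mature sequences are shown because the members are told apart by few bases. They are written 5′ to 3′ from RefSeq (GRCm38.p6), which held all 4 names looked up, with bases 2 to 8, the seed, in capitals.
mmu-miR-101a-3p: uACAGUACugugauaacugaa
mmu-miR-101b-3p: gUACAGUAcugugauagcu
mmu-miR-101c: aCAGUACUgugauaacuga
mmu-miR-144-3p: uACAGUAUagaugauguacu
As listed, miR-101b-3p starts 1 base before the first base of miR-101a-3p, so the capitals differ although both hold the same run. Over the 18 bases that both listed sequences cover, the only difference is A16G, with positions counted from the first base of miR-101a-3p and the base of miR-101a-3p written first. Over 24 bases from that position the hairpins differ at A16G and G23A. A read with an error at base 16 that ends before base 23 would not separate the members. The setting used for reads with several alignments is not given in the sources used here, so the split of counts between the members is uncertain. The listed miR-101c lies wholly within bases 2 to 20 of miR-101a-3p, and it had 0 counts in all 24 libraries. miR-144-3p shares ACAGUA at bases 2 to 7 with miR-101a-3p, and these were the only 2 of 1679 mature sequences in the RefSeq table with that run at these bases.

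The genes of the members lie apart. mmu-miR-101a-3p is at chr4:101346957-101346977 on the minus strand. In the Gencode annotation of GRCm38 its hairpin gene Mir101a (ENSMUSG00000065451.1) lies within exon 2 of the long non-coding RNA gene E130102H24Rik, on the same strand. mmu-miR-101b-3p is at chr19:29135338-29135356 on the plus strand. Its hairpin gene Mir101b (ENSMUSG00000065556.1) lies in an intron of Rcl1, a protein-coding gene with a role in ribosome synthesis, also on the same strand. The other arms were almost absent from the libraries. miR-101a-5p had 2 counts, both in Control replicate 6, and miR-101b-5p had 0 counts in every library. Over the 24 libraries the 3p arms had 3264 counts for miR-101a-3p and 2734 counts for miR-101b-3p, and their median levels of 691 and 752 CPM ranked 84th and 82nd among all rows of the table.

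Some libraries stood apart before any group was compared. S72h replicate 4 had 282 counts of miR-101a-3p and 22 counts of miR-101b-3p, and miR-122-5p, the main miRNA of hepatocytes, made up 298410 CPM of it. The summed liver list (miR-122-5p, miR-122-3p, miR-192-5p and miR-194-5p) was 309361 CPM there and between 5675 and 20422 CPM in the other 5 S72h libraries. A large share of miR-122-5p was not limited to that mouse. Control replicates 1, 4 and 6 had 159940, 156789 and 127038 CPM, while the other Control libraries had at most 9976 CPM. S6h replicate 4 was the deepest library, with 936 counts of miR-101a-3p. The part of liver miRNA in these libraries was not tested.

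miR-101a-3p had its lowest levels 24 h after surgery. In the Control mice it ranged from 500.3 to 1669 CPM with a median of 934 CPM, and in the S6h mice from 224 to 1984 CPM with a median of 752 CPM (567 CPM without replicate 4, chosen after seeing the data). In the S24h mice it ranged from 195 to 773 CPM with a median of 348 CPM. All 6 S24h mice lay below the Control median and 5 of them below the lowest Control mouse, while S24h replicate 5, with 773 CPM, lay within the Control range. In the S72h mice the level ranged from 343 to 2544 CPM with a median of 776 CPM. The highest of all 24 values was that of S72h replicate 4, and without it the S72h mice reached at most 938 CPM. As mean ± SD (n = 6) the levels were 1027 ± 476 CPM in Control, 937 ± 658 CPM at 6 h, 388 ± 216 CPM at 24 h and 969 ± 804 CPM at 72 h. Counts behind the S24h values were low, between 13 and 58. The 13 counts of S24h replicate 4 correspond to 195 CPM with an interval from 104 to 334 CPM.

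The groups overlapped in the level of miR-101b-3p. It ranged from 398 to 1839 CPM in the Control mice (median 1027 CPM) and from 525 to 1100.0 CPM in the S6h mice (median 883 CPM). In the S24h mice it ranged from 270.1 to 970.4 CPM (median 649 CPM), and in the S72h mice from 155 to 1399.6 CPM (median 705 CPM). All 6 S24h mice lay below the Control median, but only 1 of them below the lowest Control mouse. Control replicates 1 to 3 had at most 594 CPM and Control replicates 4 to 6 at least 1459 CPM, so that the Control median lies in a gap without mice. As mean ± SD (n = 6) the levels were 1069 ± 660 CPM in Control, 840.3 ± 211 CPM at 6 h, 638 ± 259 CPM at 24 h and 690.3 ± 482 CPM at 72 h.

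**Figure D1:**
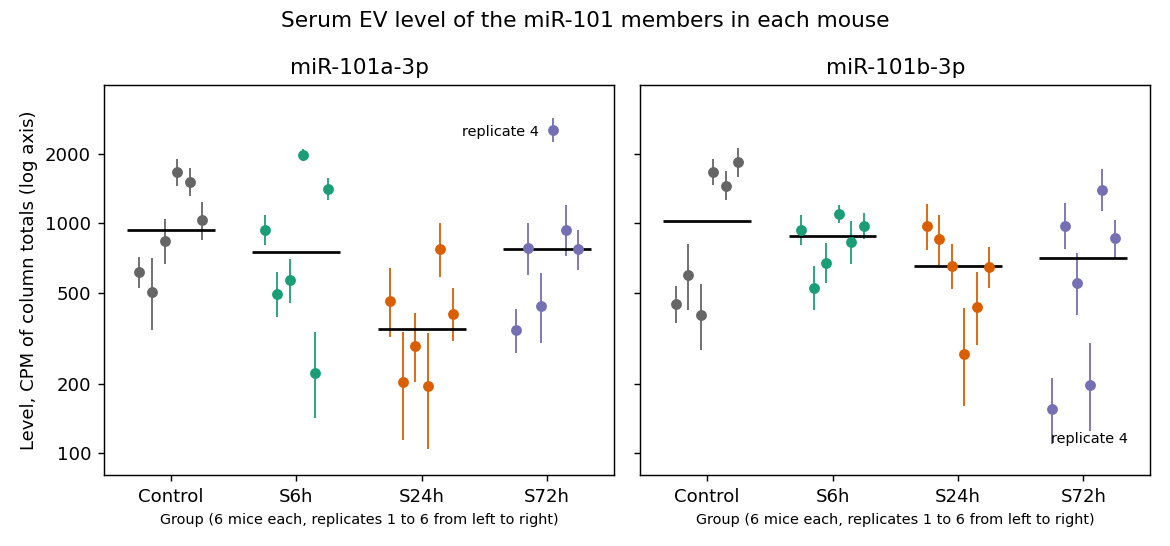
Level of miR-101a-3p (left) and miR-101b-3p (right) in CPM of column totals, on a log axis, for 6 mice in each of 4 groups. Points are mice, vertical bars exact 95% intervals of the counts and horizontal bars group medians. The S24h median of miR-101a-3p is 348 CPM against 934 CPM in Control, and S72h replicate 4 is at 2544 CPM on the left and 198 CPM on the right.

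The groups were compared by the quasi-likelihood test of edgeR, fitted to the 24 libraries together, with Benjamini-Hochberg adjustment over the 252 tested miRNAs. Calls needed an adjusted p below 0.05 together with a change of 1.5-fold or more. By that rule 0 miRNAs (0%) were called in S6h against Control, where 9 had an unadjusted p under 0.05, DESeq2 and limma voom also called 0, and edgeR without the filter on low counts called 2. The calls made up 11.9% of the tested miRNAs in S24h against Control, 3.57% in S72h against Control, 20.2% in S24h against S6h, 0.397% in S72h against S24h and 9.92% in S72h against S6h. Of the 12 tests of the members, 1 passed the rule, that of miR-101a-3p in S24h against S6h.

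miR-101a-3p was lower in the S24h than in the S6h mice by 1.56 on the log2 scale (standard error 0.55, edgeR adjusted p = 0.0435), in a comparison in which 51 of the 252 miRNAs were called. The ranges overlapped, with 5 of the 6 S24h mice below the S6h median and 2 below the lowest S6h mouse. This call was near the threshold. It was lost under 9 of 12 other settings, among them DESeq2 (-1.28, adjusted p = 0.0611) and limma voom (-1.51, adjusted p = 0.0688), and in 8 of the 24 fits with 1 mouse removed. These were the fits without S6h replicate 1, 4 or 6 and without S24h replicate 1, 2, 3, 4 or 6, with edgeR adjusted p values from 0.0551 to 0.188. The largest move came without S6h replicate 4, where the log2 fold change was -1.11 (edgeR adjusted p = 0.188). For miR-101b-3p the same comparison gave -0.65 (standard error 0.44, edgeR adjusted p = 0.347).

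Against Control, miR-101a-3p at 24 h had a log2 fold change of -1.58 (standard error 0.55), which missed the threshold in edgeR (unadjusted p = 0.00774, adjusted p = 0.0591). It lay on the other side of the threshold in DESeq2 (-1.47, adjusted p = 0.0418), in a model of the S24h and Control libraries alone (-1.57, edgeR adjusted p = 0.0291), and without S72h replicate 4 (-1.44, standard error 0.47, edgeR adjusted p = 0.0344). That last library belongs to neither group. The same side was reached without Control replicate 1 or 2, S6h replicate 5 or S24h replicate 5, with log2 fold changes from -1.91 to -1.58 and edgeR adjusted p values from 0.0340 to 0.0485. The level was lower at 24 h under each of the scalings tried, and adjusted p ranged from 0.0291 to 0.0830 over 12 other settings. miR-101b-3p had -0.91 (standard error 0.44, edgeR adjusted p = 0.161), also lower under each scaling. The median of all tested miRNAs was -0.21 in this comparison, and between -0.28 and 0.08 over other scalings and tests of the same miRNAs.

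At 6 h neither member was told apart from Control. The log2 fold change was -0.01 for miR-101a-3p (standard error 0.53) and -0.26 for miR-101b-3p (standard error 0.43), both with an edgeR adjusted p of 0.991. Standard errors of this size leave room for changes larger than the fold threshold in either direction.

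At 72 h the members differed in sign against Control, and neither passed the test. miR-101a-3p had a log2 fold change of 0.23 (standard error 0.54, edgeR adjusted p = 0.889), which became -0.68 (standard error 0.48, adjusted p = 0.488) without S72h replicate 4, and was -0.09 with column totals as library sizes. miR-101b-3p had -0.69 (standard error 0.44, edgeR adjusted p = 0.413), and -0.51 without that mouse. From 24 h to 72 h miR-101a-3p had a log2 fold change of 1.81 (standard error 0.56, edgeR adjusted p = 0.127). It had the 5th smallest p among the 252 miRNAs of that comparison, of which 1 was called. Without S72h replicate 4 the value was 0.75 (standard error 0.48, edgeR adjusted p = 0.741). For miR-101b-3p it was 0.22 (standard error 0.44, edgeR adjusted p = 0.986). S72h against S6h gave 0.24 for miR-101a-3p (edgeR adjusted p = 0.925) and -0.77 without S72h replicate 4. It gave -0.43 for miR-101b-3p (edgeR adjusted p = 0.700).

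By group medians the order of miR-101a-3p was Control, S72h, S6h and S24h from high to low, and of these neighbours only S6h and S24h differed by the call above. The order of miR-101b-3p was Control, S6h, S72h and S24h, and no neighbours in it passed the test. The first place of Control for miR-101b-3p rests on single mice. Without Control replicate 4, 5 or 6, a choice made after seeing the data, the median of the other Control mice was 594 CPM, below the S24h median of 649 CPM.

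The ratio of the members within a library does not depend on how libraries are scaled. miR-101a-3p had more counts than miR-101b-3p in 8 of 24 libraries, fewer in 15 and the same number in 1. The ratio ran from 0.238 in S24h replicate 2 to 2.21 in S72h replicate 1, and stood at 12.8 in S72h replicate 4. Per group, miR-101a-3p made up a median of 50.4% of the counts of both members in Control, 49.2% at 6 h, 35.3% at 24 h and 45.8% at 72 h. In S72h replicate 4 the share was 92.8% (interval 89.2 to 95.4%), and in S6h replicate 5 it was 21.3% (interval 14.0 to 30.2%). The interval lay above 50% in 7 libraries, below it in 7 and included it in 10. miR-122-5p was high in S72h replicate 4 and also in Control replicates 1, 4 and 6, where the share was 57.9%, 49.9% and 35.9%.

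**Figure D2:**
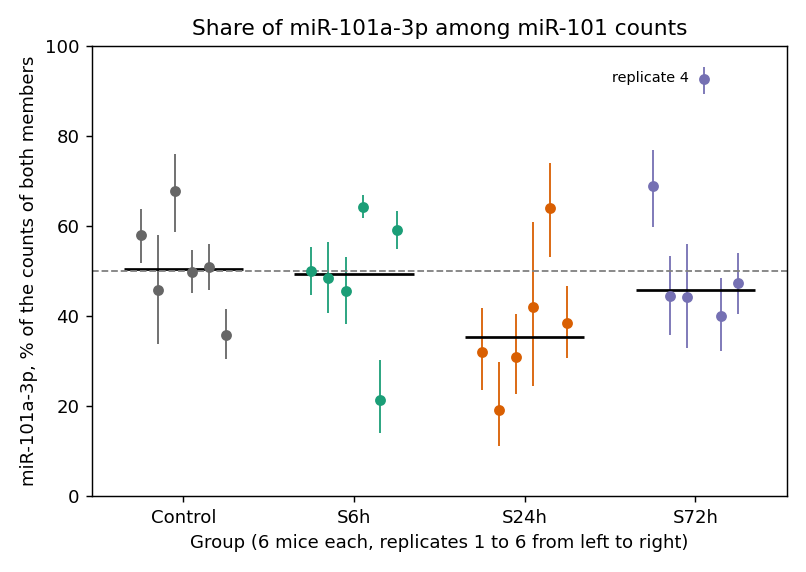
Share of miR-101a-3p among the counts of both members, in percent, for 6 mice in each of 4 groups. Points are mice, vertical bars exact 95% intervals, horizontal bars group medians, and the dashed line marks 50%. In the S24h group 5 of 6 mice lie below the line, and S72h replicate 4 is at 92.8%.

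At 24 h miR-101b-3p had more counts than miR-101a-3p in 5 of 6 mice, compared with 3 of 6 in both Control and S6h and 4 of 6 at 72 h. The mean log2 ratio (with 0.5 added to each count) was 0.08 ± 0.64 in Control, -0.14 ± 0.94 at 6 h, -0.76 ± 0.95 at 24 h and 0.57 ± 1.63 at 72 h (SD, n = 6), and -0.05 ± 0.68 (n = 5) at 72 h without replicate 4. Between S24h and Control it differed by -0.84 (exact two-sided permutation test, p = 0.106, adjusted over 6 comparisons 0.318). Between S72h and S24h it differed by 1.33 (exact permutation test, p = 0.106, adjusted p = 0.318), and by 0.71 without S72h replicate 4 (exact permutation test, adjusted p = 0.550). The other 4 comparisons had adjusted p values between 0.550 and 0.673. Within the S24h group the ratio was not told apart from 1 (exact sign-flip test, p = 0.125, adjusted over 4 groups 0.5), in a test that cannot give less than 0.0313 with 6 mice. No difference in share between the groups was detected, which does not show that the members behaved alike.

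Summed over both members, the level ranged from 1056 to 3345 CPM in Control (median 2053 CPM), from 1019.6 to 3084 CPM at 6 h (median 1558 CPM), from 465 to 1429 CPM at 24 h (median 1053 CPM) and from 498 to 2742 CPM at 72 h (median 1695 CPM). The sum is not changed by reads counted for the wrong member, but it would be by shared reads that were dropped or counted for both. Its log2 value (10 CPM added) differed by -0.93 between S24h and Control and by -0.74 between S24h and S6h. Over 5 other settings the difference was -0.38 to -0.29 between S72h and Control and -0.19 to -0.13 between S6h and Control. It was 0.55 to 0.80 between S72h and S24h and -0.22 to -0.15 between S72h and S6h. These sums are given as a description.

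The members were then compared across the 24 libraries. On log2 CPM (10 CPM added) Pearson's r was 0.30 (permutation p = 0.150, adjusted over 2 correlations 0.244) and Spearman's rho was 0.46 (permutation p = 0.0236, adjusted p = 0.0472). On deviations from the group means r was 0.26 (permutation p = 0.244) and rho was 0.40 (permutation p = 0.0676). Without the 2 libraries farthest from the median of miR-101a-3p, S72h replicate 4 and S24h replicate 4, r was 0.50 (permutation p = 0.0158) over 22 libraries and 0.49 (permutation p = 0.00971) within groups. Without S72h replicate 4 alone, a choice made after seeing the data, r was 0.57 (permutation p = 0.00449), so the low r over all libraries rests on that library. The levels of a library share its total.

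**Figure D3:**
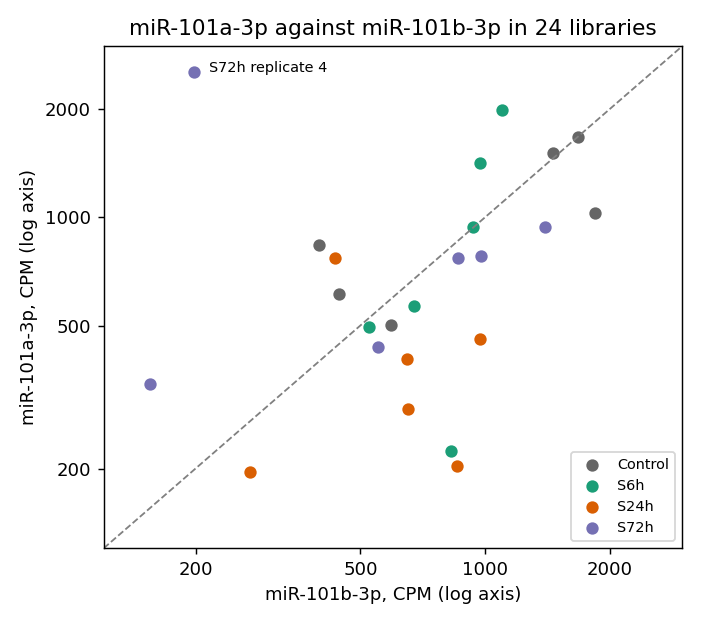
Level of miR-101a-3p against miR-101b-3p in CPM, on log axes, in 24 libraries coloured by group. Points are mice and the dashed line marks equal levels. S72h replicate 4 lies at 2544 and 198 CPM, away from the other 23 libraries, over which r is 0.57.

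The miRNAs with the most similar profile were also looked up for each member. Among 132 other tested miRNAs with a median count of at least 20, those with the highest Pearson r with miR-101a-3p over the 24 libraries were miR-194-5p (r = 0.63), miR-30a-5p (0.61), miR-22-3p (0.54), miR-100-5p (0.49) and miR-125b-5p (0.47). For miR-101b-3p they were miR-30e-5p (r = 0.65), miR-106b-5p (0.62), miR-16-5p (0.58), miR-15b-5p (0.57) and miR-142a-5p (0.54). miR-101b-3p ranked 17th for miR-101a-3p, and miR-101a-3p ranked 28th for miR-101b-3p. These ranks rest on S72h replicate 4. Without it, a choice made after seeing the data, each member ranked 4th for the other (r = 0.57), and miR-194-5p ranked 9th for miR-101a-3p (r = 0.53). These values describe likeness over libraries that share groups and totals, and miR-194-5p also belongs to the liver list. Of the 10 named first, miR-22-3p, miR-106b-5p and miR-16-5p were called in S24h against Control, each lower, with log2 fold changes of -1.69 (standard error 0.37), -1.70 (standard error 0.43) and -1.20 (standard error 0.29) in edgeR, where 11.9% of all tested miRNAs were called, 20 of 252 as lower.

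miR-144-3p, an erythroid miRNA whose first bases resemble those of miR-101a-3p, had lower group medians than either member. It ranged from 248 to 591 CPM in Control, from 67.8 to 507 CPM at 6 h, from 83.6 to 271 CPM at 24 h and from 93.9 to 391 CPM at 72 h. Its log2 fold change at 24 h was -1.40 (standard error 0.54, edgeR adjusted p = 0.0744). The other arm of the same hairpin, miR-144-5p, had -0.10 (standard error 0.47, edgeR adjusted p = 0.907). Neither arm was called in any of the 6 comparisons by edgeR.

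Other miRNAs known to repress Ezh2 were compared as a list of 14, made up of miR-26a-5p, miR-26b-5p, miR-138-5p, miR-124-3p, miR-214-3p and the let-7 and miR-98 family, of which 12 were tested. At 24 h all 12 had positive log2 fold changes against Control (median 0.78, against -0.21 for all tested miRNAs), opposite in sign to both miR-101 members. The list was written with earlier results of these data known, so the shared sign is given as a description. Most of its tested miRNAs are let-7 or miR-98 members, so the 12 are not separate observations. Of these 12, miR-26a-5p, miR-26b-5p, let-7b-5p and let-7c-5p rose and none fell, where 11.9% of all tested miRNAs were called, 10 of 252 as higher. With 1 mouse left out, a check of list members added after seeing the data, let-7b-5p kept its call in all 24 fits, while it was lost in 2 for miR-26a-5p, in 7 for let-7c-5p and in 13 for miR-26b-5p. Without Control replicate 5 only 5 of 252 were called higher. At 72 h all 12 were again positive (median 0.73, against -0.06 for all tested), with miR-26a-5p, let-7b-5p and let-7c-5p called higher, among 5 of 252. None of the 252 was called higher at 72 h with column totals, with 2 groups only or with the replicate block. The same held without Control replicate 1, 2, 5 or 6 or S72h replicate 2 or 5, and for the 323 tested with 10 CPM in 6 libraries. These calls at 72 h therefore depend on the setting. Both comparisons share the Control mice. At 6 h the median was 0.11 and none was called. The summed level of the list had a median of 195389 CPM in Control and 354186 CPM at 24 h, led by let-7a-5p, so it exceeded the summed miR-101 level by far in every group. The median at 24 h was positive under each scaling tried, the lowest being 0.78. Reads of let-7 miRNAs can be shared among close family members. What this means for Ezh2 in any tissue was not measured.

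Markers of blood cells and tissues also moved between the groups, and their part in the levels of miR-101 was not tested. In S24h against Control 8 of 8 erythroid miRNAs had negative log2 fold changes (median -1.24), and 4 fell, which were miR-451a, miR-486a-5p, miR-486b-5p and miR-16-5p, where 20 of all 252 fell. With upper quartile factors miR-486a-5p and miR-486b-5p were not called. These rows had near-equal log2 fold changes (-0.48 and -0.47 in S6h against Control). Their reads can be shared, so they may not be separate observations. With 1 mouse left out miR-16-5p kept its call in all 24 fits, and the others lost theirs in 4 to 6 of them. The rest of the list, both arms of miR-144 included, was not called. Whether miR-16-5p or the list tracks red cells was not tested. Their summed level, most of it miR-486b-5p, ranged from 126857 to 216765 CPM in Control, from 90322 to 156610 CPM at 6 h, from 49369 to 145830 CPM at 24 h and from 58213 to 186462 CPM at 72 h. In S24h against S6h, the comparison in which miR-101a-3p was called, miR-451a and miR-16-5p fell, as did 3 of 5 tested skeletal muscle miRNAs (miR-1a-3p, miR-133a-3p and miR-499-5p), where 20.2% of all tested miRNAs were called, 35 of 252 as lower. miR-451a was not called with RLE, upper quartile factors or column totals. The summed muscle list, led by miR-1a-3p, had a median of 53278 CPM in Control, 117926 CPM at 6 h, 33230 CPM at 24 h and 27754 CPM at 72 h. S72h replicate 1, which had the lowest level of miR-101b-3p of all 24 libraries (155 CPM), stood apart with 237383 CPM, while the other S72h libraries had at most 50749 CPM. S6h replicates 2 and 4 had 251346 and 265491 CPM, and the other S6h libraries at most 118233 CPM. With miR-122-5p and miR-1a-3p removed from the counts, a setting chosen after seeing the data, miR-101a-3p had -1.32 in S24h against S6h (edgeR adjusted p = 0.0805).

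The liver list had 3 of 4 members tested and none called in any of the 6 comparisons by edgeR. Its summed level had a median of 77228 CPM in Control, 15965 CPM at 6 h, 19930 CPM at 24 h and 12345 CPM at 72 h. The Control median lies in a gap, with Control replicates 2, 3 and 5 between 6004 and 14723 CPM and Control replicates 1, 4 and 6 between 139733 and 171007 CPM. Without any single one of the latter, a choice made after seeing the data, the Control median was 14723 CPM, below the S24h median. Its median log2 fold change was -1.80 in S24h against Control and 0.11 in S72h against Control, and the latter was -0.45 with column totals as library sizes. The value of 0.11 is that of miR-122-5p and depends on S72h replicate 4, with 298410 CPM. The other S72h libraries had 4753 to 13192 CPM of miR-122-5p, all below the Control mean of 77391 CPM. That mean rests on Control replicates 1, 4 and 6. Control replicates 2, 3 and 5 had 3674, 9976 and 6926 CPM, so the S72h libraries were not set apart from them. The 7 miRNAs of the platelet and leukocyte list, led by miR-126a-3p, had a median log2 fold change of 0.37 in S24h against Control. Of them 5 were higher and 2 lower, with none called, and their cells of origin were not tested. In S24h against S6h, where 20.2% of all tested miRNAs were called, miR-150-5p was called higher (log2 fold change 1.39) and miR-223-3p lower (-1.06), the latter not with RLE, upper quartile factors or column totals. Their summed level had medians of 15659 CPM in Control and 16877 CPM at 24 h.

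Depth moved with the groups as well. The S24h libraries, with the lowest levels of miR-101a-3p, had the lowest median total of the 4 groups, and the deepest library, S6h replicate 4, had 1984 CPM of miR-101a-3p, the highest of its group. The part of depth in the levels was not tested.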

How the data were processed

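Small RNA libraries from serum EVs of 24 mice were analysed, grouped through the sample labels. According to the methods, the authors trimmed adapters and random adapter bases, aligned reads to GRCm38 (mm10) with Bowtie, selected reads of miRNA length with SAMtools and counted them with featureCounts on miRBase. The length of the listed miR-101b-3p is below that of the shortest reads kept. Use of strand and counting of molecules by the random bases are not given in the sources used here. The deposited values are whole-number counts without normalization. No 2 libraries were identical.

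miRNAs with at least 10 CPM in at least 12 libraries were tested (252 of 1966, with 99.7% of the counts), with TMM factors, in edgeR 4.0.16 (R 4.3.3). Alternatives used DESeq2 1.42.0, limma 3.58.1, other scalings, filters, pseudocounts and left-out mice. Ratios were tested by exact permutation and correlations with 100000 permutations in Python 3.11.15. The test planned for the sum of both members is not printed, and the sum is given as a description. The fit was also run on simulated data, whose outcome is not given here and is not used for any statement above. The named miRNAs are the members, other miR-101 rows, both arms of miR-144, the 5 nearest profiles of each member, and from each list the most abundant and the called. Other names only spell out what the liver and Ezh2 lists hold. The members and lists were chosen with earlier results of these data known.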

Additional observations from a re-analysis of the deposited data

Results flagged for a closer look

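Within each group of 6 mice, the distance of the highest and of the lowest mouse from its neighbour was divided by the distance between both extremes. A value above Dixon's critical value was taken as far apart, which happens by chance in about 1 of 20 groups. It was exceeded in 2 of 44 groups, where 2.2 are due to chance. The summed log2 level of miR-101a-3p and miR-101b-3p reached 0.629 in S24h replicate 4, which had 465 CPM, with the other 5 S24h mice between 945 and 1429 CPM. This library had 13 and 18 counts of the members. The log2 level of the liver list reached 0.68 in S72h replicate 4, the mouse with a ratio of miR-101a-3p to miR-101b-3p of 12.8. No cause was tested for either mouse.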

How the results depend on the processing

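Under 12 other settings miR-101b-3p stayed on the same side of the threshold in all 6 comparisons, and its sign changed in 1, S72h against S24h with limma voom (-0.087). Its log2 fold change ranged from -0.43 to -0.012 in S6h against Control over these settings. The range was -0.71 to -0.34 in S24h against S6h and -0.80 to -0.11 in S72h against S6h. For miR-101a-3p in S24h against Control the log2 fold change passed the threshold with DESeq2 (-1.47), without a filter (-1.50) and with 2 groups only (-1.57), and with 1 mouse left out it ranged from -1.91 to -1.33. In S24h against S6h the call was lost with DESeq2 (-1.28), limma voom (-1.51), RLE (-1.28), upper quartile factors (-1.26), column totals (-1.28), no filter (-1.39), a mean of 100 CPM (-1.34) and, chosen after seeing the data, with miR-122-5p and miR-1a-3p removed (-1.32). Its range with 1 mouse left out was -1.89 to -1.11. S72h against S24h passed without a filter (1.72). S72h against Control reversed with limma voom (-0.38) and column totals (-0.086), and S72h against S6h with limma voom (-0.27). With 1 mouse left out the ranges for miR-101a-3p were -0.46 to 0.23 in S6h against Control, -0.68 to 0.48 in S72h against Control and -0.77 to 0.69 in S72h against S6h. For miR-101b-3p they were -0.43 to -0.027 in S6h against Control and -0.98 to -0.45 in S72h against Control. They were -0.067 to 0.42 in S72h against S24h and -0.72 to -0.23 in S72h against S6h. The cause of these moves was not tested.

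The number of calls over all tested miRNAs was 2 without a filter in S6h against Control (0 in the model as described), and 50 with DESeq2 and 47 with limma voom in S24h against Control (30). In S72h against Control (9) it was 21 with DESeq2, 19 with upper quartile factors, 2 with column totals, 1 with 10 CPM in 6 libraries, 18 with a mean of 100 CPM, 0 with 2 groups only and 23 with miR-122-5p and miR-1a-3p removed. In S72h against S24h (1) it was 4 with DESeq2, 0 with limma voom, 10 without a filter and 0 with 2 groups only, and in S72h against S6h (25) it was 38 with limma voom. With 1 mouse left out it ranged from 20 to 42 in S24h against Control, 1 to 14 in S72h against Control, 32 to 53 in S24h against S6h, 1 to 5 in S72h against S24h and 13 to 35 in S72h against S6h. The balance of directions moved with the scaling. In S24h against Control 10 of 30 calls were higher, and 23 of 40 with upper quartile factors. In S24h against S6h these were 16 of 51 and 23 of 43, in S72h against Control 5 of 9 and 16 of 19, and in S72h against S6h 11 of 25 and 19 of 29.

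The ratio of the members kept its direction and its side of the threshold under other pseudocounts, and their sum kept its direction under other pseudocounts and scalings. With 1 mouse left out the difference in log2 ratio ranged from -0.41 to 0.13 in S6h against Control and from -0.13 to 0.71 in S72h against Control. The mean log2 ratio ranged from -0.11 to 0.26 within Control, -0.33 to 0.21 within S6h and -0.050 to 0.79 within S72h. The difference in log2 sum in S72h against S6h ranged from -0.35 to 0.13. Pearson's r of the members passed the threshold without the 2 libraries farthest from the median (0.50 over libraries, 0.49 within groups) and without S72h replicate 4 (0.57 and 0.53). Spearman's rho over all 24 libraries passed with none left out (0.46, permutation test, adjusted p = 0.0472). Within groups rho did not (0.40, permutation test, adjusted p = 0.0676).

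The labels give the groups the same replicate numbers, but of 36 correlations between same-numbered libraries 7 were above 0.1 (from -0.28 to 0.19), so the numbers were not taken to pair mice. With the replicate block, miR-101a-3p had -1.40 in S24h against Control, which passed the threshold, -1.30 in S24h against S6h, which did not, and -0.083 in S72h against Control, which reversed. The calls in S72h against Control were 1 with the block.

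Depth limits both members, with 13 to 58 counts of miR-101a-3p at 24 h and 34 to 282 at 72 h, and 18 to 93 counts of miR-101b-3p at 24 h and 22 to 115 at 72 h.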
